A study of Mus musculus with 28 samples.

Results

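Retinoic acid response genes were described as a set of 9 genes, found by symbol in the deposited tables and joined by gene identifier, out of 15384 genes with a value in each RNA-seq library. They were the receptors Rara, Rarb and Rarg, the intracellular binding proteins Crabp1 and Crabp2, the retinol importer Stra6, the retinaldehyde reductase Dhrs3, the retinoic acid hydroxylase Cyp26a1, and Stra8. The study asked how FACT, a histone chaperone made of SSRP1 and SUPT16, acts on transcription in mouse embryonic stem cells (mESCs) of the E14 line. The cells were grown in serum with leukaemia inhibitory factor (LIF), and control cells (4 libraries) or Ssrp1 knockdown (KD) cells (4 libraries) were collected after transfection with a scrambled short hairpin RNA (shRNA) or with a combination of Ssrp1 shRNAs. Puromycin was given 48 h after transfection for a further 24 h at 2 µg/ml in both groups, and ERCC spike-in RNA was added to all 8 libraries. Both groups are one cell line, and the study's methods name lentiviral vectors for the transfection. No retinoic acid was added to these cells as far as the labels say. It was added at 1 µM for 4 days, followed by 3 days without LIF, only to the embryoid bodies from which early neural progenitor cells (NPCs) were made (3 libraries). E14 mESCs for which the labels name no transfection gave the chromatin-associated RNA (2 libraries) and the peaks of SSRP1 and of SUPT16.

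Retinoic acid is made from retinol by oxidation to retinaldehyde and then to the acid, and it acts in the nucleus through retinoic acid receptors paired with retinoid X receptors. The pair sits on DNA at direct repeats of a short core motif and recruits corepressors without ligand and coactivators with it. Several genes of the pathway are themselves targets of the receptors, among them Rarb, Cyp26a1, Dhrs3 and Stra6, so that the pathway regulates its own ligand supply. Added retinoic acid drives ES cells out of the pluripotent state, and in the germ line it induces Stra8 before meiosis.

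Of the 9 genes, Stra8 and Crabp1 rose in the KD libraries, and Stra6, Rarb and Dhrs3 fell. A gene was called where limma, fitted across all 15384 genes with Benjamini-Hochberg adjustment, gave an adjusted p below 0.01 and where its log2 fold change was also beyond 1 in either direction. By this rule 5 of the 9 were called, where the share over all genes was 28.6%. The 2 higher calls stand beside a background of 8.07% and the 3 lower calls beside 20.6%. The KD and control libraries did not overlap for 7 of the 9 genes, against 73.3% of all genes. The median log2 fold change was 0.01 over the 9 genes and -0.03 over all genes, and 1242 genes were called higher and 3163 lower in all. Direct repeats in the promoters, the kind of sequence the receptors are known to bind, are shown first.

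The promoter windows of Rarb and Cyp26a1 each held one direct repeat with a spacing of 5 bases (DR5). Windows ran from 250 bases before a RefSeq start to 50 after it (300 bases, GRCm38.p6, the same build as mm10), and 8 of the 9 genes had at least 1. The core motif was searched on both strands as AGGTCA, as the form AGTTCA, as the form GGGTCA and as the form GGTTCA. Spacings of 5, 2 and 1 bases were allowed, and each repeat also counts as 2 core motifs. DR5 was in 32 of 32851 mouse windows (0.0974%), DR2 in 0.268% and DR1 in 0.222%, while at least 1 core motif was in 43.7% of windows. No window of the other genes held a DR5, DR2 or DR1, which says only that these letters are not within those bases. The 2 repeats are printed on the strand of their gene with 6 bases on either side, with the core motifs in capitals.
Rarb DR5, chr14:16575513-16575529, minus strand: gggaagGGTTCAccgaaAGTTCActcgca
Cyp26a1 DR5, chr19:37697776-37697792, plus strand: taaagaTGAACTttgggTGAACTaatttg
The Rarb repeat lay 53 to 37 bases before its start at position 16575476, and the Cyp26a1 repeat lay 32 to 16 bases before the start at 37697808. Rarb has 2 curated starts, and the window of this one was searched. The annotated extent of Cyp26a1 begins further upstream, at 37697738, so that its repeat lies within an exon of another annotated transcript. In Cyp26a1 the core motifs are read on the opposite strand, where the repeat is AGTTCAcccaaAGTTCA, and both repeats share the second core motif. The 250 bases before the Rarb start are given because this gene had the lowest level per kilobase in KD of the set. The capitals again mark the core motifs of the DR5.
Rarb, chr14:16575477-16575726, minus strand: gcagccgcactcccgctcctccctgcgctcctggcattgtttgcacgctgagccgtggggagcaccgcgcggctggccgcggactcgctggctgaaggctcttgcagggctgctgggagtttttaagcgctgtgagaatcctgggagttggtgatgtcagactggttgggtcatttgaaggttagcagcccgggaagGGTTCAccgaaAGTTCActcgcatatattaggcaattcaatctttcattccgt
In all, 31 genes had a DR5 in a window and 6 of them had RNA-seq values. Of these, 2 were called lower (Rarb and Cfap45), 0 higher and 4 were not called, with a median log2 fold change of -0.81. This list was made after the values were known, and Rarb and Cyp26a1 are themselves among the 6. Over all genes 20.6% were called lower and 8.07% higher. Of genes with a mean value below 20, as 5 of the 6 had, 38.4% were called lower.

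Levels are given as deposited library-size values, which are gene counts divided by one factor per library. They summed to 825584 to 909417 per control library and to 1137290 to 1182580 per KD library, so totals were not equal between the groups. One read was worth 0.136 to 0.179 in the control libraries and 0.0580 to 0.124 in the KD libraries, which held 4602278 to 6680919 and 9433193 to 19856032 reads in genes. The target was checked first. Ssrp1 stood at 261, 230, 223 and 226 in the control libraries and at 24.1, 26.4, 24.9 and 28.9 in the KD libraries (log2 fold change -3.15, adjusted p = 1.18e-22). All 10 pluripotency markers on the list, such as Pou5f1 and Nanog, were measured, and 7 were called higher in KD. Their summed value ran from 1709 to 1836 in control and from 4915 to 5400 in KD. In bulk RNA, fewer cells that express a gene and less RNA per cell cannot be told apart.

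**Figure D1:**
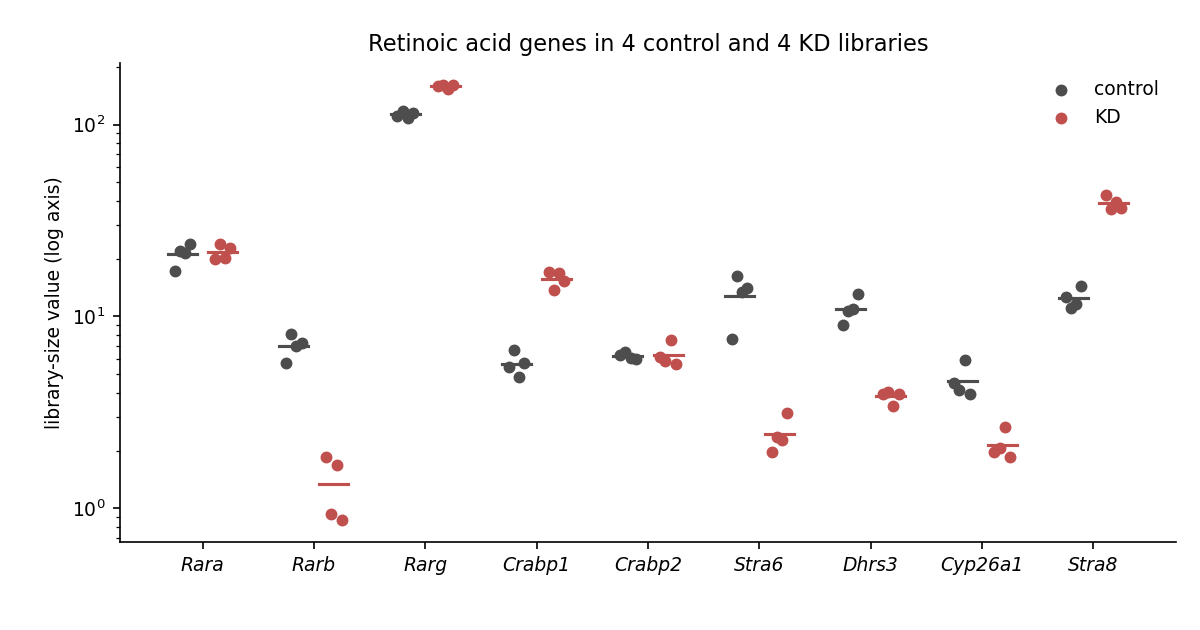
Library-size values (log axis) of the 9 retinoic acid genes in each of the 4 control (grey) and 4 KD (red) libraries, with bars at the group means. The groups overlap for Rara and Crabp2, and are apart for the other 7 genes.

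The 3 receptors did not move together. Rarb fell, Rarg was higher by less than the fold threshold, and Rara did not pass the test. Rarb (GeneID 218772, chr14:16430839-17082331, minus strand) is the receptor best known as a direct target of retinoic acid itself. It had values of 5.72, 8.09, 7.00 and 7.25 in control libraries 1 to 4, and of 1.85, 0.938, 1.68 and 0.870 in KD libraries 1 to 4. Every KD library was below every control library, and the spread was wider in relative terms in KD (coefficient of variation 37.8%) than in control (14%). The log2 fold change was -2.06 ± 0.230 (SE, n = 4 per group, limma adjusted p = 5.65e-09). These levels rest on 39 to 53 reads per control library and 15 to 26 reads per KD library.

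Rarg (GeneID 19411, chr15:102234938-102257522, minus strand), the receptor known as the main form in undifferentiated ES cells, had the highest value of the set. Its values were 111, 118, 108 and 114 in control and 158, 160, 153 and 161 in KD. The groups did not overlap, and the spread within each was small (3.86% and 2.27%). KD exceeded control by a log2 fold change of 0.49 ± 0.055 (SE, n = 4 per group, limma adjusted p = 8.29e-09), a 1.40-fold higher mean, which is under the threshold of 1 on the log2 scale.

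Rara (GeneID 19401, chr11:98927800-98974942, plus strand), the most widely expressed receptor, had values of 17.3, 22.03, 21.3 and 23.8 in control and 20.0, 23.9, 20.3 and 22.8 in KD. The groups overlapped over most of their range. The log2 fold change was 0.05 with a 95% interval from -0.17 to 0.26 (limma adjusted p = 0.689), an interval that does not reach the change of Rarb. Without control library 1, the lowest of its group, the value was -0.044.

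Counted per kilobase of exon, so that genes can be compared, Rarg made up 82.2% ± 1.73 of the summed receptor level in control and 89.6% ± 0.352 in KD (SD, n = 4 each). Rarb made up 5.89% ± 0.612 in control and 0.880% ± 0.347 in KD. Rara made up 11.9% ± 1.24 and 9.56% ± 0.654. Thus the receptor RNA of both groups was mainly Rarg, and the smallest share, that of Rarb, was the one that shrank most.

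The binding proteins carry retinoic acid inside the cell. Crabp1 is known for holding it in the cytoplasm and passing it to degradation, and Crabp2 for delivering it to the receptors in the nucleus. Crabp1 (GeneID 12903, chr9:54764748-54773110, plus strand) rose. Its values were 5.44, 6.71, 4.84 and 5.74 in control and 17.1, 13.7, 16.8 and 15.3 in KD, so that the lowest KD library was above the highest control library by a wide gap. This gave a log2 fold change of 1.39 ± 0.141 (SE, n = 4 per group, limma adjusted p = 9.36e-10).

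Crabp2 (GeneID 12904, chr3:87948693-87953372, plus strand) had values of 6.26, 6.54, 6.10 and 6.02 in control and 6.18, 5.86, 7.58 and 5.68 in KD. The control values lay inside the KD range, and KD library 3 was the highest of all. Between the groups the log2 fold change was 0.01, with a 95% interval from -0.32 to 0.34 (limma adjusted p = 0.944). The ratio of Crabp1 to Crabp2 per kilobase was 1.11 ± 0.123 in the control libraries and 3.04 ± 0.322 in the KD libraries (SD over 4 libraries), with ranges of 0.965 to 1.25 and 2.70 to 3.35. The ratio is taken within each library so that one scaling factor per library cancels out.

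Both genes that act on retinol and retinaldehyde fell. Stra6 (GeneID 20897, chr9:58063793-58154004, plus strand) is the membrane receptor that takes up retinol from its plasma carrier. Its values were 7.62, 16.2, 13.5 and 14.1 in control and 1.98, 2.35, 2.27 and 3.13 in KD. Control library 1 was far below the other control libraries, and still above every KD library. Stra6 had a log2 fold change of -2.15 ± 0.203 (SE, n = 4 per group, limma adjusted p = 2.35e-10), and of -2.37 without control library 1. Which of Stra6 and Rarb fell further depended on the processing, and their intervals overlapped (-2.57 to -1.73 and -2.54 to -1.59).

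Dhrs3 (GeneID 20148, chr4:144892534-144928209, plus strand) turns retinaldehyde back to retinol and so limits the supply of the acid. Its values were 8.98, 10.7, 10.9 and 13.1 in control and 3.95, 4.05, 3.43 and 3.94 in KD. The KD libraries lay close together, with library 3 below the others, and all were under the control range. Its log2 fold change was -1.39 ± 0.163 (SE, n = 4 per group, limma adjusted p = 1.48e-08).

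Cyp26a1 (GeneID 13082, chr19:37697738-37701536, plus strand), the enzyme that clears retinoic acid, was the gene nearest the threshold. Its values were 4.49, 4.13, 5.92 and 3.97 in control and 1.98, 2.05, 2.65 and 1.86 in KD. The groups did not overlap. The log2 fold change was -0.95 ± 0.217 (SE, n = 4 per group, limma adjusted p = 0.000257), and it was not called because of the fold limit. It was called with whole reads recovered from the values, at -1.10 in edgeR and -1.07 in DESeq2, and at -1.08 with a smaller pseudocount of 0.1. Between 24 and 33 reads per control library and 16 to 41 per KD library stand behind it.

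Stra8 (GeneID 20899, chr6:34920163-34939344, plus strand), which retinoic acid induces in germ cells entering meiosis, rose most. Its values were 12.7, 11.01, 11.7 and 14.4 in control and 42.8, 36.5, 39.4 and 36.8 in KD, with a gap between the groups of more than the whole control range. Its log2 fold change was 1.61 ± 0.100 (SE, n = 4 per group, limma adjusted p = 4.65e-14), a 3.13-fold higher mean. Among the 6 germ cell markers on the list 0 were called higher and 1 lower, the latter being Ddx4 (log2 fold change -1.12). Under the fold limit, Sycp3 (means of 14.4 and 23.5), Prdm1 (8.47 and 13.4) and Dazl (154 and 86.4) had groups that did not overlap. The summed value of the list was 215 to 256 in control and 163 to 174 in KD, with Dazl the most abundant.

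Per kilobase of exon, the order of levels in control was Rarg (35.2), Stra8 (8.54), Crabp1 (7.67), Crabp2 (6.92), Dhrs3 (6.08), Rara (5.11), Stra6 (3.52), Cyp26a1 (2.60) and Rarb (2.53). Only Rarg stood clear of its neighbour there, and all the other neighbours in that order overlapped over the 4 libraries. In KD the order was Rarg (49.3), Stra8 (26.7), Crabp1 (21.2), Crabp2 (7.03), Rara (5.26), Dhrs3 (2.14), Cyp26a1 (1.20), Stra6 (0.667) and Rarb (0.482). There only Stra6 and Rarb overlapped. The 8 genes below Rarg therefore spread out in KD, from a range of levels in which neighbours could not be separated to one in which nearly all could. The control libraries also held fewer reads than the KD libraries, and the part of depth in these overlaps was not tested.

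**Figure D2:**
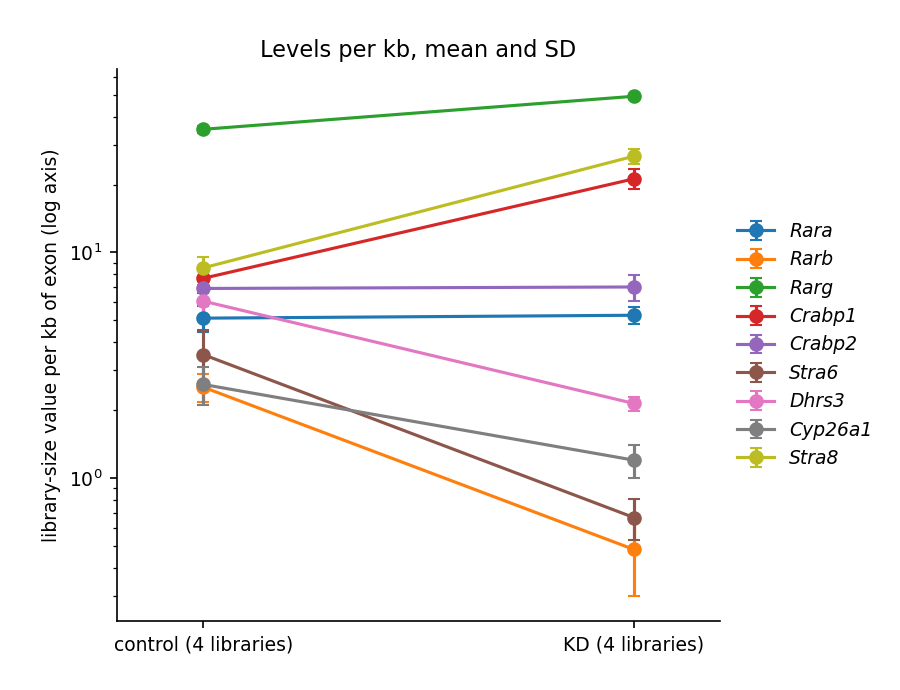
Library-size value per kilobase of exon (log axis) for each of the 9 genes in control and KD, as mean and SD of 4 libraries. Rarg is highest in both, and Rarb, at 2.53 in control and 0.482 in KD, is lowest in both.

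Exon length and level moved with the fold change over all genes, and the members were read against genes alike in both. Genes were put into 4 classes of equal size by exon length and split at a mean value of 20, taken over both groups together. Among genes below 20 the share called lower was 38.4% and the share called higher 3.3%. Rarb and Stra6 belonged to a class (2690 to 4141 bases, below 20) with a median log2 fold change of -0.93, of which 46.8% were called lower. Dhrs3 and Cyp26a1 belonged to one (1637 to 2689 bases, below 20) with a median of -0.62 and 34.7% called lower. All 4 genes lay below their class median and inside its range from the 10th to the 90th percentile. Crabp1 and Crabp2 shared a class (up to 1636 bases, below 20) with a median of -0.12, of which 8.29% were called higher. The class of Stra8 (61 to 1636 bases, at least 20) had a median of 0.78 with 32.8% called higher. Stra8 came into this class only through its KD mean of 38.9, since its control mean was 12.4. Its class was thus set in part by the change that is read against it. Over all genes with exons below 1500 bases in sum, as in these 3 genes, 19.7% were called higher. Crabp1 and Stra8 were the 2 genes outside that range, both above it (90th percentiles 0.92 and 1.45). When the KD values were corrected by a loess curve on exon length, the log2 fold change of Crabp1 was 0.83 and it was no longer called, while that of Stra8 was 1.36 and still called.

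**Figure D3:**
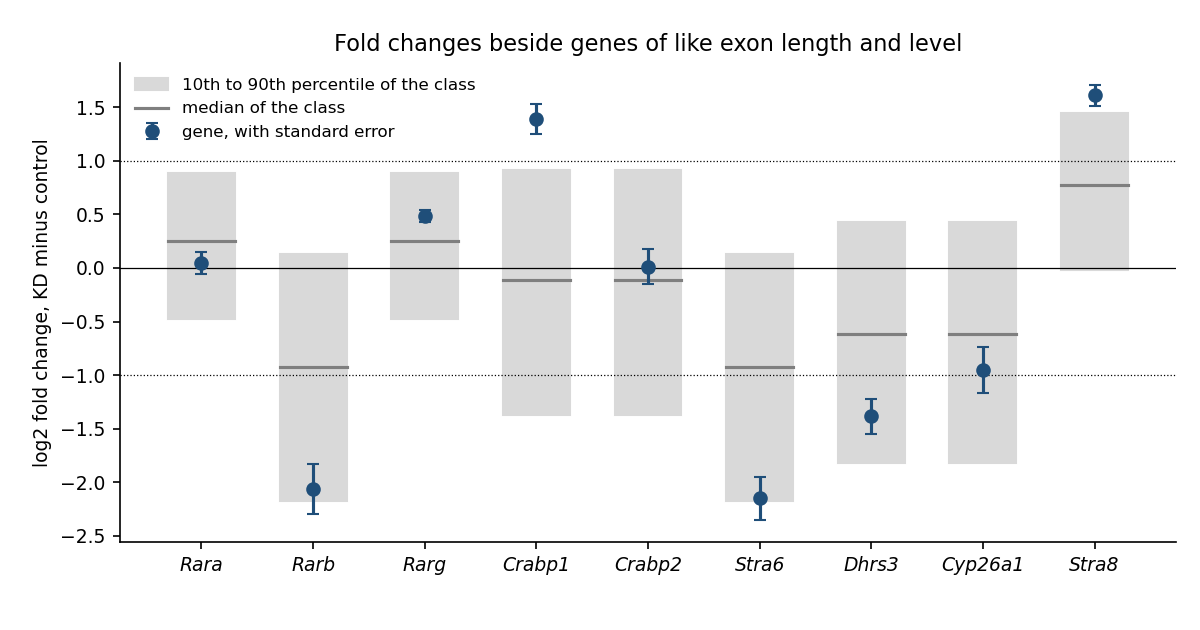
Log2 fold change (KD minus control) with its standard error for each gene (blue), beside the median (grey line) and the 10th to 90th percentile (grey bar) of all genes of the same class of exon length and level. Dotted lines mark the fold threshold, and Crabp1 and Stra8 lie above their bars.

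Some of the calls depended on the scaling. With the deposited spike-in scaling the median log2 fold change of all genes moved to 0.95, and 87.2% of called genes were higher, against 28.2% with library-size values. Relative to that median, the changes were 1.65 for Stra8, 1.40 for Crabp1, 0.55 for Rarg, 0.10 for Rara, 0.01 for Crabp2, -1.02 for Cyp26a1, -1.39 for Dhrs3, and -2.17 for both Rarb and Stra6. As computed, Rara (1.05) and Rarg (1.51) became calls, Dhrs3 (-0.44) was lost, and Rarb and Stra6 stayed below at -1.22 each. The spike-in factor relative to the library-size factor was 0.598 to 0.895 in control, 0.921 in KD library 1 and 1.504 to 1.85 in the other KD libraries. The KD library 1 value of Rara on this scale (18.4) therefore fell within the control range of 11.6 to 21.3. With quantile normalisation 47.8% of called genes were higher, Dhrs3 (-0.57) was lost and Cyp26a1 was at 0.24. Stra8, Crabp1, Rarb and Stra6 were called the same way under the library-size, spike-in and quantile scalings.

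**Figure D4:**
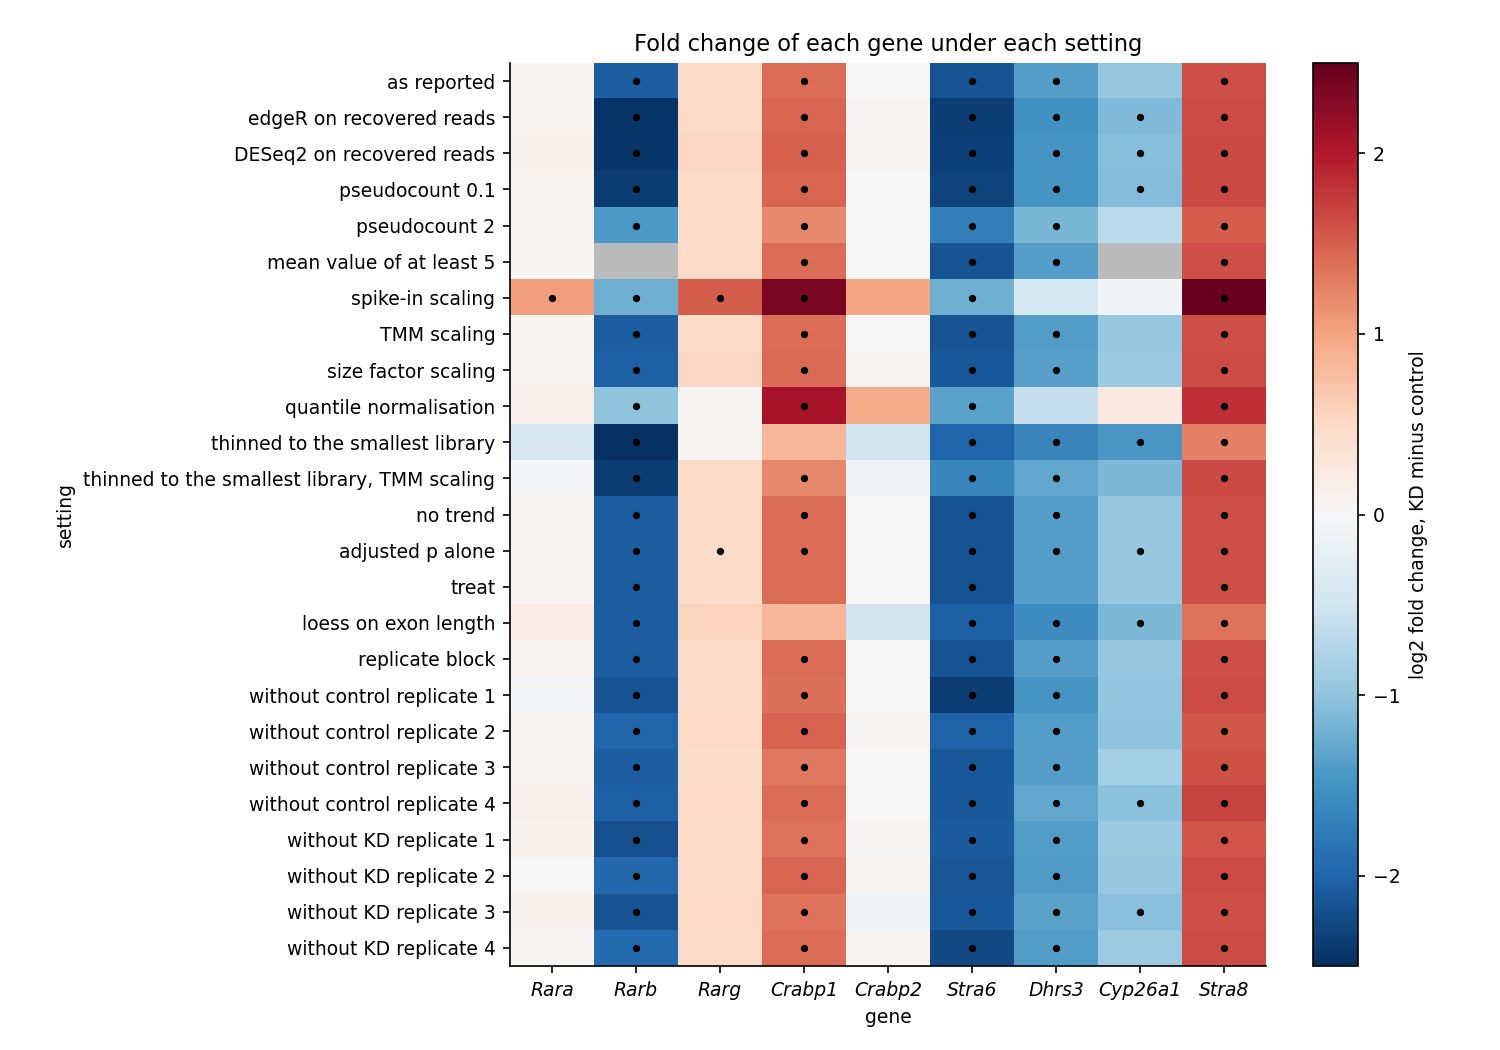
Log2 fold change (KD minus control, colour) of each gene (columns) under each way of processing (rows), with a dot where the gene was called and grey where it was left out by a filter. Rarb, Stra6 and Stra8 carry a dot in every row in which they were tested, and Rara, Crabp2 and Cyp26a1 change colour between rows.

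Calls in the rest of the pathway were about as frequent as over all genes. Of 47 other genes listed by role, 33 had values, 2 were called higher and 7 lower, beside 28.6% of all genes called, and their median log2 fold change was -0.14. Among the 8 measured genes of retinoic acid synthesis, 3 were called lower and 0 higher. They included Aldh1a3, a retinaldehyde dehydrogenase that makes the acid, with values of 5.44, 9.47, 6.64 and 6.84 in control and 0.618, 1.11, 1.36 and 0.812 in KD (log2 fold change -2.37, limma adjusted p = 8.48e-10). Rdh12, a retinol dehydrogenase, fell by 1.91 on the log2 scale (limma adjusted p = 5.05e-08). Aldh1a2, the main enzyme of the embryo for this step, had means of 5.85 and 2.98 and was not called.

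The retinoid X receptors measured, Rxra and Rxrb, were not called, at log2 fold changes of -0.26 and 0.40 (limma). The 3 measured genes of retinol transport and storage were not called either. Fabp5, the carrier that takes retinoic acid to another nuclear receptor, rose from 11.8 ± 1.82 to 26.2 ± 2.75 (SD, n = 4 each; log2 fold change 1.12, limma adjusted p = 1.71e-09). The exons of Fabp5 sum to 932 bases, and of genes below 1500 bases 19.7% were called higher. With the length correction Fabp5 was at 0.67 and was no longer called. Ncor1, a corepressor of the receptors, had means of 225 and 239 with overlapping groups.

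Of 10 measured genes known as targets of retinoic acid in embryos or cell culture, 3 were called lower and 1 higher, where 20.6% and 8.07% of all genes were, and 38.4% of genes below a mean value of 20, as the 3 were, were called lower. Meis1, a homeobox cofactor, went from 12.3 ± 3.44 to 3.03 ± 0.785 (SD, n = 4 each; log2 fold change -1.85, limma adjusted p = 2.62e-09). Egr1, an immediate early gene that many signals induce, went from 6.48 ± 2.12 to 17.3 ± 1.74 (log2 fold change 1.40, limma adjusted p = 2.05e-08). Neural, primitive endoderm and epithelial markers moved in the same libraries. Of those measured, 3 of 6 neural markers were called lower and 1 higher, 4 of 6 primitive endoderm markers lower and 3 of 6 epithelial markers lower. Mesoderm and fibroblast markers had 2 of 4 called lower. The summed values of the primitive endoderm list were 177 to 189 in control and 119 to 137 in KD, and those of the neural list 99.1 to 120 and 148 to 160. The neural marker called higher was Tubb3 (means of 33.6 and 108), while Pax6, Sox1, Nes, Neurod1 and Map2 had lower means in KD. The summed values of the epithelial list were 1009 to 1360 and 754 to 801, and those of the mesoderm and fibroblast list 46.6 to 60.5 and 18.4 to 22.4. Their part in the changes of the retinoic acid genes was not tested.

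The profiles most like those of Stra8 and Stra6, the genes with the highest and the lowest log2 fold change in the limma fit, were sought over the 8 libraries, as a description. Stra8 was followed most closely by Gm6014 (Pearson's r = 0.999), Atp5g3 (0.999) and Nars (0.998), and 3187 genes had r above 0.95 with it. Stra6 was followed by Aqp9 (0.997), Fam167a (0.997) and Gm6639 (0.996), and 2002 genes had r above 0.95. The points share 2 groups that differ in depth, so that a large share of genes reaches such values.

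FACT peaks were assigned to 4 of the 9 genes. SSRP1 peaks numbered 4 at Rara, 1 at Crabp1 and 1 at Stra6, and SUPT16 peaks numbered 5 at Rara and 2 at Rarg. Over all genes measured, 36% had an SSRP1 peak, 18.6% a SUPT16 peak and 41.9% either. Rarb, Crabp2, Dhrs3, Cyp26a1 and Stra8 had no peak in the lists, so that genes with and without a peak were found among those that rose (Crabp1 and Stra8) and those that fell (Stra6 against Rarb and Dhrs3). A peak within 1000 bp of a curated RefSeq start was found for 4 of the 9 genes, and for 32.9% of all genes with such a start. Replicates were called together, and their agreement cannot be read from the lists.

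The single Crabp1 peak of SSRP1 (chr9:54764361-54764654) ended 94 bp before the start of the gene. The single Stra6 peak of SSRP1 (chr9:58129289-58129680) covered a start at position 58129349 and overlapped an exon. The SUPT16 peaks of Rarg lay on either side of an internal start at 102246500, one beginning 20 bp downstream (chr15:102246271-102246480) and one 261 bp upstream in an intron (chr15:102246761-102246970). At Rara, 2 of the 4 SSRP1 peaks were within 1000 bp of a start, the longer (chr11:98963341-98964418, 1078 bp, in an intron) ending 454 bp before the start at 98964872. It wholly contained a SUPT16 peak of 350 bp (chr11:98963971-98964320). Of the 6 SSRP1 peaks of these genes 2 overlapped a SUPT16 peak by at least 1 bp, both of them at Rara.

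**Figure D5:**
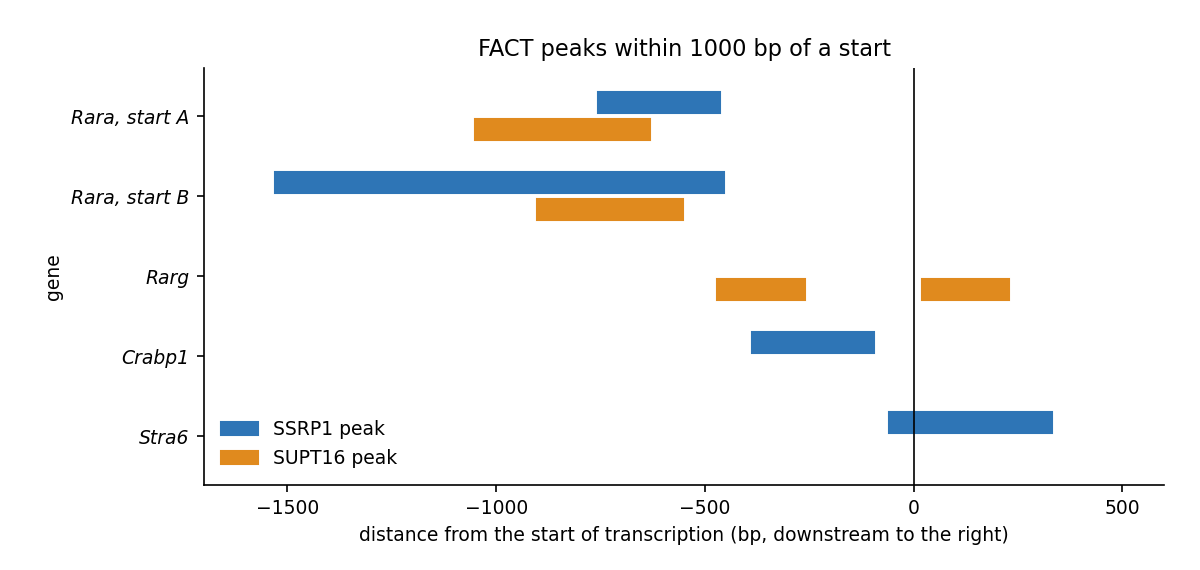
Peaks of SSRP1 (blue) and SUPT16 (orange) within 1000 bp of a curated start of transcription, by distance from that start in bp, for Rara (2 internal starts, A and B), Rarg, Crabp1 and Stra6. The Stra6 peak covers the start, the Rarg peaks flank it, and the others lie upstream.

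The 250 bases before the starts of Crabp1 and Rarg are shown because a peak reaches into the first and peaks flank the second. In Crabp1 the capitals mark the 157 bases under the SSRP1 peak. In Rarg no base lies under a peak, since the window falls between the 2 SUPT16 peaks.
Crabp1, chr9:54764498-54764747, plus strand: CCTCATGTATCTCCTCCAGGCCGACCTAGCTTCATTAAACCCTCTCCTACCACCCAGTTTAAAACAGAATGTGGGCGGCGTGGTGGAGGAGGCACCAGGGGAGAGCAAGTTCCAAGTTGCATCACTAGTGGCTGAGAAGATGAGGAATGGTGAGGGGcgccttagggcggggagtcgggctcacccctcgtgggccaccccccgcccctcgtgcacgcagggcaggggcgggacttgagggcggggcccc
Rarg, chr15:102246501-102246750, minus strand: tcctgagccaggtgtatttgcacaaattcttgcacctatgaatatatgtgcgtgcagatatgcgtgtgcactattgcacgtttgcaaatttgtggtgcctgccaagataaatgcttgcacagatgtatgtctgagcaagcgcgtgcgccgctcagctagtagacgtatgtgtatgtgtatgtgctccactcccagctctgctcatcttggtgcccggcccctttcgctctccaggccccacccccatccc
Neither stretch held a core motif.

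In chromatin-associated RNA of mESCs the receptors were again led by Rarg. Its counts were 35 and 59 in libraries 1 and 2, which is 10.2 CPM (counts scaled by the library total, 95% exact interval 7.08 to 14.1) and 17.4 (13.2 to 22.4). Rara had 7 and 24 counts, or 2.03 (0.818 to 4.19) and 7.07 (4.53 to 10.5) CPM. For Rara the intervals of the 2 libraries did not overlap, so that the libraries differed by more than counting error. Rarb had 1 and 2 counts, Cyp26a1 1 and 2, Stra8 1 and 2, Dhrs3 1 and 1, Crabp1 2 and 0, Crabp2 4 and 1, and Stra6 0 and 2. The exact interval of a count of 0 reached 1.07 CPM in library 1 (Stra6) and 1.09 CPM in library 2 (Crabp1), and differences among these 7 genes were not detectable at this depth. Rarg made up 64.8% of the 145 counts of the 9 genes (exact interval 56.5 to 72.6), and 56.8% per kilobase. The libraries held 3441643 and 3393923 counts, of which 79.4% and 75.0% fell in small nucleolar, small nuclear and ribosomal RNA genes. Intervals cover counting error only.

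The table of NPCs and mESCs listed 8 of the 9 genes, all but Cyp26a1, which the authors' table of KD and control also did not list. It gives the authors' mean log2 level over NPC and mESC libraries together, with no value per library, so that no level in NPCs is reported here. The authors' mean log2 level was 6.80 for Rarg, 5.12 for Rara, 3.98 for Stra8, 3.28 for Crabp1, 3.26 for Dhrs3, 3.09 for Stra6, 2.75 for Rarb and 2.56 for Crabp2. In the table of KD and control it was 7.59 for Rarg, 4.88 for Rara, 4.80 for Stra8, 3.33 for Crabp1, 2.92 for Dhrs3, 2.23 for Crabp2, 1.93 for Stra6 and 1.10 for Rarb. As percentiles among the genes of each table, Rarb stood at 27.4 in the NPC and mESC table and at 8.44 in the KD and control table, and Stra6 at 30.9 and 16.9. Stra8 stood at 42.0 and 52.8, and Rarg at 87.4 and 93.6. The tables were normalised separately and hold different libraries, so these positions were not tested.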

How the data were processed

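Per the study's methods, RNA-seq reads were aligned to mm10 with STAR, counted per gene with featureCounts, filtered at a CPM above 1 and scaled with TMM factors. The authors deposited these values as a signal per library in 2 scalings, to library size and to ERCC spike-ins. The library-size values were whole multiples of one step per library (100% of values within 0.1 of a whole read), so reads could be recovered for count tests. The authors also deposited mean log2 levels in tables of KD and control and of NPCs and mESCs. Their other columns hold the authors' own log2 fold changes, moderated statistics and p-values, as does a table of exon usage, and none of these was used. Each count of chromatin RNA was deposited raw by the authors (STAR and featureCounts). For peaks, the authors ran PePr on both replicates together after Bowtie2 2.2.6 alignment to mm10, and ChIP-Enrich gave each peak its nearest gene. The submitters' processing notes name STAR 2.4.1b, 2.4.2a and 2.5.1b for the series.

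The library-size values were put on a scale of log2(value + 0.5) and fitted with limma 3.58.1 (eBayes with trend, R 4.3.3) on 4 control and 4 KD libraries, without covariates, over all 15384 genes, and 15241 of them had a symbol. Fold changes are on this scale and understate the change of low genes. No filter on low values was added. Calls needed an adjusted p below 0.01 and a log2 fold change beyond 1 in either direction, as in the study. Alternatives were edgeR 4.0.16 and DESeq2 1.42.0 on the reads so recovered, and other pseudocounts, filters, scalings and left-out libraries. In simulated data for KD against control (15383 genes, 100 changed at a log2 fold of 2 and 100 at 3) limma, edgeR and DESeq2 each recovered 100% at both sizes with 0 false calls. The simulation had as many rises as falls, a fixed dispersion and no shift in scaling. Recovery at smaller folds, or with as many changed genes as in the data, was not tested. Replicates are separate samples per the labels and differed by more than sampling noise (chi-square per degree of freedom 1.88 to 6.61). The methods call them biological replicates without naming the cultures, so p-values measure the spread between these libraries. Starts and promoter sequences were taken from RefSeq on GRCm38.p6. Promoter sequences were read for 8 of the 9 genes, and Crabp2 was the other. Protein sequences, MNase-seq, NET-seq and ATAC-seq were not analysed here.

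The 9 genes and all lists were chosen with earlier results of these data known. All 9 genes were named whatever their change. From the other lists, at most the 2 largest calls in each direction per role were named (some are not reported here), with Aldh1a2, Rxra, Rxrb, Ncor1, Cfap45 and the markers added after their values were seen. The genes most like Stra8 and Stra6 were the 3 with the highest Pearson's r over 8 libraries.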

Additional observations from a re-analysis of the deposited data

Results flagged for a closer look

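One library stood apart from the others of its group for 1 of the genes named above. The Dhrs3 value of KD library 3 was 3.43, while the nearest of the other KD libraries was at 3.94, and this gap was 0.833 of the range of the group, above the critical value of Dixon's test for 4 libraries. Of 32 groups of 4 libraries tested this way 1 passed, where chance gives about 1 in 20. The log2 fold change of Dhrs3 stayed between -1.47 and -1.30 when each library was left out in turn.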

How the results depend on the processing

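Stra8 and Stra6 kept their direction and call under all 24 alternatives, and Rarb under the 23 that tested it, with log2 fold changes of 1.25 to 2.61 for Stra8, -2.37 to -1.22 for Stra6 and -2.69 to -1.01 for Rarb. The filter at a mean value of 5 left out Rarb and Cyp26a1. Crabp1 kept its call in 21 of 24, without it at 0.83 after thinning all libraries to the smallest, 0.83 with the length correction and under limma's test against a minimum fold (treat). With TMM factors on the thinned reads Crabp1 was at 1.20 and called. Dhrs3 kept its call in 21 of 24 and lost it with spike-in scaling, quantile normalisation and treat. Cyp26a1 was called in 8 of 23 alternatives, among them without control library 4 (-1.02) and without KD library 3 (-1.04), and reversed with quantile normalisation (0.24). Rarg became a call with spike-in scaling and with the adjusted p alone. It was at 0.0715 with quantile normalisation (limma adjusted p = 0.223) and at 0.0768 after thinning (limma adjusted p = 0.303). After thinning with TMM factors Rarg was at 0.474. Rara was at -0.42 after thinning, at -0.034 after thinning with TMM factors, an alternative chosen after seeing the data, and at -0.044 without control library 1 (-0.044 to 0.106 with 1 library left out). Crabp2 was at 0.96 with spike-in scaling (limma adjusted p = 0.00229), where its groups did not overlap. With quantile normalisation Crabp2 was at 0.93 (limma adjusted p = 8.31e-05), and it was under the fold limit in both. It was at -0.45 after thinning, -0.083 after thinning with TMM factors and -0.45 with the length correction. Without KD library 3 it was at -0.071 and without control library 4 at -0.0023 (-0.071 to 0.058 with 1 library left out). Thinning without TMM factors moved the median of all genes to -0.47 and left 6.91% of calls higher. Among the named pathway genes no direction changed, and calls were lost in 1 to 3 alternatives each, Aldh1a3 excepted. The cause of these differences was not tested.

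Over all genes 4405 were called, against 8476 with spike-in scaling, 11192 with the adjusted p alone and 2097 with treat, and 4254 to 4635 with 1 library left out. Of the 9 genes 5 were called, 3 with treat and 5 to 6 with 1 library left out. With peaks of at least 500 bp 1 gene kept a FACT peak, and with an overlap of at least 50% of the shorter peak 1 SSRP1 peak was shared. The chromatin RNA share of Rarg was 63.4% to 67.3% with either library left out. The replicate numbers did not pair the libraries (correlations of deviations of same-numbered libraries from -0.06 to 0.02), and with the number as a replicate block 4405 genes and 5 of the 9 were called, with no other call changed. Reads limit the precision of Rarb, with 15 to 26 per KD library, and of Cyp26a1, with 16 to 41.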
